A study of Mus musculus with 8 samples.

Results

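The suppressor of cytokine signalling (SOCS) family has 8 genes in mouse, Cish and Socs1 to Socs7, and all 8 were measured here by 11 of the 23521 probe sets whose annotation names a single gene. The 8 genes were taken by name. Where a gene has several probe sets, the set was chosen by its mean level over the 8 arrays, the brightest being kept, and not by the difference between groups. The whole table holds 22180 genes. Gene expression was measured on 4 microarrays of hBcl-2 transgenic mice, whose human BCL2 transgene is driven by the CD11c promoter, CD11c being a surface integrin of dendritic cells and of some other leukocytes, and on 4 microarrays of wild-type littermates. All mice were 8-week-old C57BL6 males on control chow. The cells were conventional dendritic cells (cDC) positive for CD103 and CD11b, sorted from the mesenteric lymph nodes, with 2 to 3 samples pooled for an array. The labels do not say whether a pool shares animals with another pool, so p-values measure the spread between these pools.

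SOCS proteins are the feedback brake of cytokine receptors that signal through Janus kinases (JAK) and STAT transcription factors. A cytokine activates JAK and STAT proteins, STAT proteins switch on SOCS genes, and the SOCS proteins bind the receptor or kinase through an SH2 domain. Their SOCS box recruits a ubiquitin ligase of elongins B and C, cullin 5 and the RING protein encoded by Rnf7, which marks the bound protein for degradation. CIS (the product of Cish), SOCS1, SOCS2 and SOCS3 are the members best known from cytokine signalling, and SOCS1 and SOCS3 can also block JAK activity directly. SOCS4 to SOCS7 are better known from growth factor and insulin receptors. In dendritic cells SOCS1 and SOCS3 restrain responses to interferons and to the IL-6 family, and Socs2 is among the genes that mature dendritic cells express.

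Of the 8 SOCS genes, 1 fell in transgenic cDC, Socs2, 0 rose and 7 did not pass the test. Over all 22180 genes, 1.69% passed at an adjusted p below 0.05 in limma, 0.848% lower and 0.839% higher. At an unadjusted p below 0.05 in limma there were 2 members, Socs2 and Socs1, against 13.2% of all genes. The groups did not overlap for 2 of the 8, the same genes, against 8.94% of all genes. The median log2 difference was -0.07 over the 8 members and -0.0016 over all genes, with 4 members below 0 and 4 above.

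Values are log2 expression per probe set, so a difference of 1 is a change by a factor of 2. Levels of different genes are not set against each other, because each probe set has its own response. Transgenic replicate 4 was the array least like its group, correlating at 0.970 on average with the other arrays of its group over all probe sets, against 0.977 to 0.979 for the other transgenic arrays and 0.983 to 0.985 within wild type. The cDC marker Flt3 ran from 10.27 to 10.95 over transgenic and from 10.97 to 11.23 over wild-type arrays, and Zbtb46 from 8.07 to 8.80 over transgenic and from 8.68 to 8.85 over wild-type arrays. Of 6 measured cDC markers 0 passed, with 3 lower and 0 higher at an unadjusted p below 0.05 in limma, against 13.2% of all genes in either direction. The groups did not overlap for 2 of the 6, Flt3 and H2-Ab1, both lower in transgenic arrays, against 8.94% of all genes. Of the genes of the sorting markers, Itgae (CD103) ran from 5.17 to 5.86 over transgenic and from 5.44 to 5.90 over wild-type arrays, and Itgam (CD11b) from 5.38 to 5.72 over transgenic and from 5.38 to 5.76 over wild-type arrays. Of 8 measured markers of the sorted subset, Esam, the gene of an adhesion molecule, fell (log2 fold -0.62, SE 0.12; limma adjusted p = 0.032) and 0 rose, and Esam kept its call in 2 of the 8 fits that left out an array (limma adjusted p up to 0.103). At an unadjusted p below 0.05 in limma, 1 of the 8 was lower, Esam, and 1 higher, Cd24a (log2 fold 0.70). Over all genes 13.2% passed that threshold, in either direction. The array's probes are made for mouse genes and gave no check of the human transgene here.

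Socs2, whose product limits growth hormone and other STAT5-activating signals, was at 9.74, 9.68, 9.72 and 9.50 in transgenic replicates 1 to 4, against 10.52, 10.75, 10.33 and 10.44 in wild-type replicates 1 to 4. Every transgenic array lay below every wild-type array. The means were 9.66 ± 0.11 in transgenic and 10.51 ± 0.18 in wild-type arrays (SD, n = 4 each), a log2 fold of -0.85 (SE 0.12, 95% interval -1.12 to -0.58; limma adjusted p = 0.0105). That is 1.80-fold lower in transgenic cDC. By fold Socs2 ranked 160 from the lowest of 22180 genes, and by p it ranked 63. It passed in each of the 8 fits that left out an array, with log2 folds of -0.91 to -0.77 and limma's adjusted p between 0.019 and 0.0415. The fall of Socs2 was known from earlier work on these arrays when the family was chosen, so it is described here and is no independent evidence.

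A second, dimmer probe set names Socs2 and was not used in the choice above. It gave 8.44, 8.14, 8.18 and 7.56 in transgenic arrays, against 8.75, 9.28, 8.82 and 8.84 in wild-type arrays. These groups did not overlap either. Its log2 fold was -0.84 (SE 0.19), the same size as on the brighter set, and limma's adjusted p over all single-gene probe sets was 0.0647, which did not pass. Both probe sets read the same RNA pools, so they are not separate samples.

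**Figure D1:**
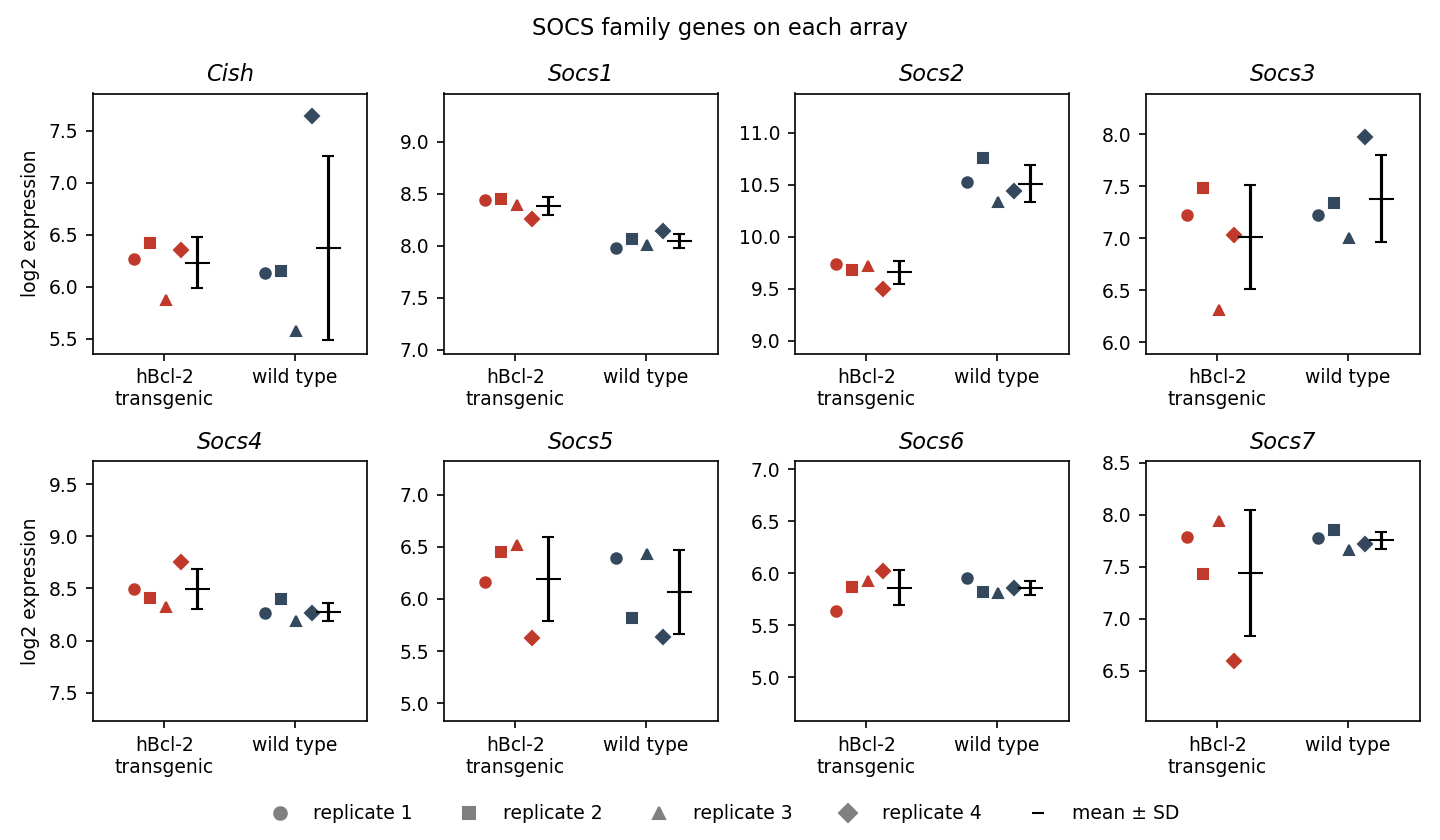
Log2 expression of the 8 SOCS genes on each array (y axis, every panel spanning the same range), with the 4 hBcl-2 transgenic arrays left of the 4 wild-type arrays. Symbols mark the replicate number, and bars are the mean ± SD of a group. For Socs2 the transgenic arrays lie below all wild-type arrays, for Socs1 they lie above, and the other 6 genes overlap.

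Socs1, whose product binds and inhibits JAK kinases downstream of interferon receptors, was at 8.44, 8.45, 8.40 and 8.26 in transgenic replicates 1 to 4, against 7.98, 8.06, 8.01 and 8.14 in wild-type replicates 1 to 4. All 4 transgenic arrays lay above all 4 wild-type arrays, the opposite side from Socs2. The means were 8.38 ± 0.09 in transgenic and 8.05 ± 0.07 in wild-type arrays (SD, n = 4 each), a log2 fold of 0.34 (SE 0.10, 95% interval 0.11 to 0.56), or 1.26-fold. Limma's adjusted p over all genes was 0.143, so Socs1 did not pass, and it passed under none of the 19 alternatives tried, where limma's adjusted p ran from 0.0751 to 0.311.

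Cish encodes CIS, which competes for STAT5 docking sites on cytokine receptors. It was at 6.27, 6.42, 5.88 and 6.36 in transgenic replicates 1 to 4, against 6.13, 6.16, 5.58 and 7.64 in wild-type replicates 1 to 4. Wild-type replicate 4 was the highest of the 8 arrays, wild-type replicates 1 and 2 lay within the transgenic range, and wild-type replicate 3 lay below it. The log2 fold was -0.14 (SE 0.36, 95% interval -0.94 to 0.66; limma adjusted p = 0.922), and without wild-type replicate 4 its sign turned, to 0.28 (limma adjusted p = 0.647). The dimmer probe set of Cish lay between 4.64 and 5.19 in transgenic and between 4.66 and 5.45 in wild-type arrays, and there wild-type replicate 1, not 4, was the highest.

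Socs3, whose product acts on receptors of the IL-6 family through the shared chain gp130, was at 7.23, 7.48, 6.31 and 7.03 in transgenic replicates 1 to 4, against 7.22, 7.33, 7.00 and 7.97 in wild-type replicates 1 to 4. The groups overlapped, and wild-type replicate 4 was again the highest array and transgenic replicate 3 the lowest. The log2 fold was -0.37 (SE 0.26, 95% interval -0.96 to 0.22; limma adjusted p = 0.633), and it was -0.53 without transgenic replicate 2, -0.14 without transgenic replicate 3 and -0.17 without wild-type replicate 4. Its dimmer probe set gave a log2 fold of -0.21 (SE 0.12; limma adjusted p = 0.513), and there the highest array was wild-type replicate 1, at 7.02, with wild-type replicate 4 at 6.75.

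Cish, Socs1 and Socs3 are known to be switched on through DNA elements near their start sites that STAT dimers and interferon-regulated factors bind, so their promoters are shown. Promoter sequences came from the RefSeq tables of build GRCm38.p6 and run from 250 bases before to 50 bases after a start site. Entries of a chromosome that was left out of this search were not counted. The entries searched matched 4 of the 8 members: Cish, Socs1, Socs3 and Socs4. Capitals mark every match to the STAT element TTCNNNGAA, which reads the same on both strands, or to GAAANNGAA, the core of interferon-response elements, searched on both strands. Each promoter is given 5′ to 3′ on its gene's strand, Cish at chr9:107296409-107296708 (plus strand), Socs1 at chr16:10785487-10785786 (minus strand) and Socs3 at chr11:117969317-117969616 (minus strand).
Cish: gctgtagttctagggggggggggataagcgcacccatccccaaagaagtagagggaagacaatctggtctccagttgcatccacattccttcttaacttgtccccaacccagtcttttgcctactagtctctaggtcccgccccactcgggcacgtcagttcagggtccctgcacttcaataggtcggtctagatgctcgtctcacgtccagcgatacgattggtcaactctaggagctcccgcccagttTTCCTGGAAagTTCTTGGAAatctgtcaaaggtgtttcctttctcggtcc
Socs1: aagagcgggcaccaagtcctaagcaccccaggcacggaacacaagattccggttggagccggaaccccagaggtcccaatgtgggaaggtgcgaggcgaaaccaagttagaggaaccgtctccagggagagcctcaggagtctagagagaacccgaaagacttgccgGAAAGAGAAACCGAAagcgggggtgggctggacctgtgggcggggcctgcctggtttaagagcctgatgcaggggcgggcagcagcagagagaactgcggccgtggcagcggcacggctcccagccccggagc
Socs3: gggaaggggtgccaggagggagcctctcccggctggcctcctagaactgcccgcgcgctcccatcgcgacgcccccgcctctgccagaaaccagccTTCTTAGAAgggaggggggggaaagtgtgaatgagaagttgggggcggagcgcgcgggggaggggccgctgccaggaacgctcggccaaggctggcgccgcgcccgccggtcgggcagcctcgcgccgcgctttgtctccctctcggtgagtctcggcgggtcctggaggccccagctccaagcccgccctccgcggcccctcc
Cish held 2 copies of TTCNNNGAA, TTCCTGGAA at bases 1 to 9 and TTCTTGGAA at bases 12 to 20 after its annotated start. Socs3 held 1 copy, TTCTTAGAA, at -154 to -146. Socs1 held none in this window and held 2 copies of GAAANNGAA, at -83 to -75 and -77 to -69, which overlap each other in the run GAAAGAGAAACCGAA. Socs4 held neither. Among all 32851 promoters of 300 bases in the table, 8.3% held TTCNNNGAA and 8.56% held GAAANNGAA. The matches are descriptions of the letters and were not tested for binding.

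The members known from growth factor and insulin signalling did not pass. Socs4, an inhibitor of epidermal growth factor receptor signalling, lay between 8.32 and 8.76 in transgenic and between 8.19 and 8.39 in wild-type arrays. Its log2 fold was 0.22 (SE 0.12; limma adjusted p = 0.497), with 3 of 4 transgenic arrays above every wild-type array and transgenic replicate 4 the highest. Without transgenic replicate 4 the log2 fold was 0.13. Socs5, which is known to act on the same receptor and on the IL-4 receptor, lay between 5.63 and 6.52 in transgenic and between 5.64 and 6.43 in wild-type arrays. Its log2 fold was 0.12 (SE 0.24; limma adjusted p = 0.897), and the spread within each group (SD 0.41 in transgenic and 0.40 in wild-type arrays) was larger than the difference.

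Socs6, which binds the stem cell factor receptor KIT, lay between 5.63 and 6.03 in transgenic and between 5.81 and 5.95 in wild-type arrays. Its log2 fold was 0.0045 with a 95% interval of -0.25 to 0.26 (limma adjusted p = 0.992). Socs7, which binds insulin receptor substrates, was at 7.79, 7.43, 7.94 and 6.59 in transgenic replicates 1 to 4, against 7.77, 7.85, 7.66 and 7.72 in wild-type replicates 1 to 4. The transgenic arrays were spread on both sides of the wild-type arrays, with transgenic replicate 3 above all of them and transgenic replicates 2 and 4 below all of them. The log2 fold of -0.32 (SE 0.25; limma adjusted p = 0.676) was -0.03 without transgenic replicate 4.

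**Figure D2:**
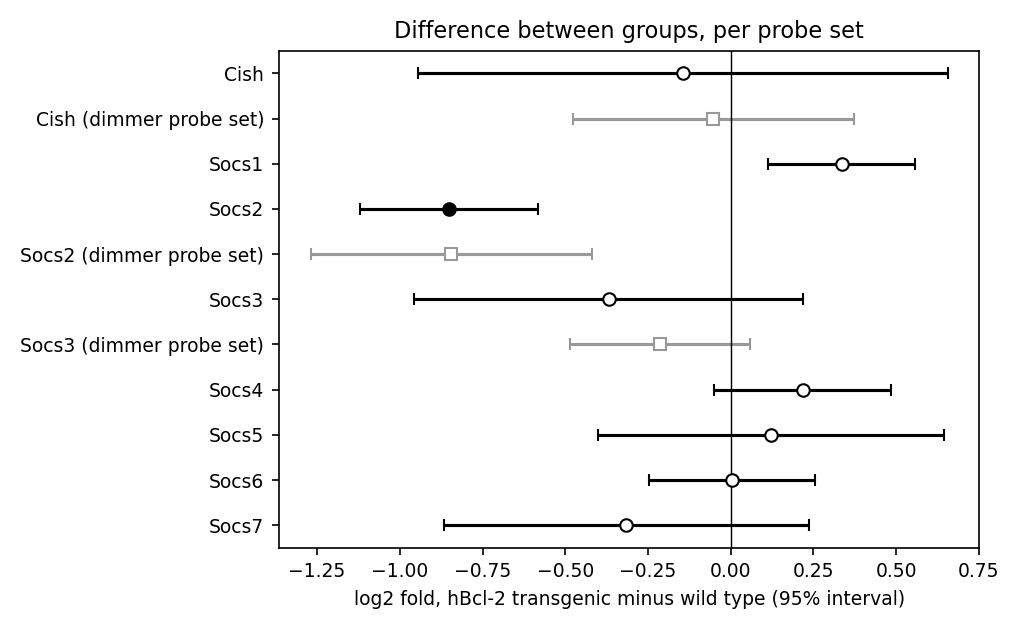
Log2 fold, hBcl-2 transgenic minus wild type (x axis), with 95% intervals from limma for each of the 11 probe sets of the SOCS genes. Black circles are the probe sets used and grey squares the dimmer ones, and filled symbols have an adjusted p below 0.05. Only the brighter Socs2 set is filled, both Socs2 intervals and that of Socs1 lie off 0, and the interval of Cish, from -0.94 to 0.66, is the widest of those used.

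The genes whose pattern over the 8 arrays was nearest to that of Socs2 were Nudt17, Slc2a6, Tle3, Tmem120b, Tmem63b and Map2k1. Nearness is the root-mean-square difference of log2 values after each gene's own mean is subtracted, over 7972 other named genes with a mean of at least 6. It was 0.10 for Nudt17, 0.10 for Slc2a6, a sugar transporter gene, 0.11 for Tle3, a transcriptional corepressor gene, and 0.13 for Map2k1, which encodes the kinase MEK1, against a median of 0.48 over all those genes. Since a small distance from Socs2 requires a fall of like size, their log2 folds of -0.97 to -0.73 are set by that choice. For Cish, the member with the largest spread over the arrays, the nearest gene was Icam4 at 0.24, against a median of 0.62. All 6 genes nearest to Cish were highest on wild-type replicate 4, as Cish was, and none of these 6 passed (limma adjusted p between 0.447 and 0.992). Their peak on that array follows from the choice by nearness to Cish.

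**Figure D3:**
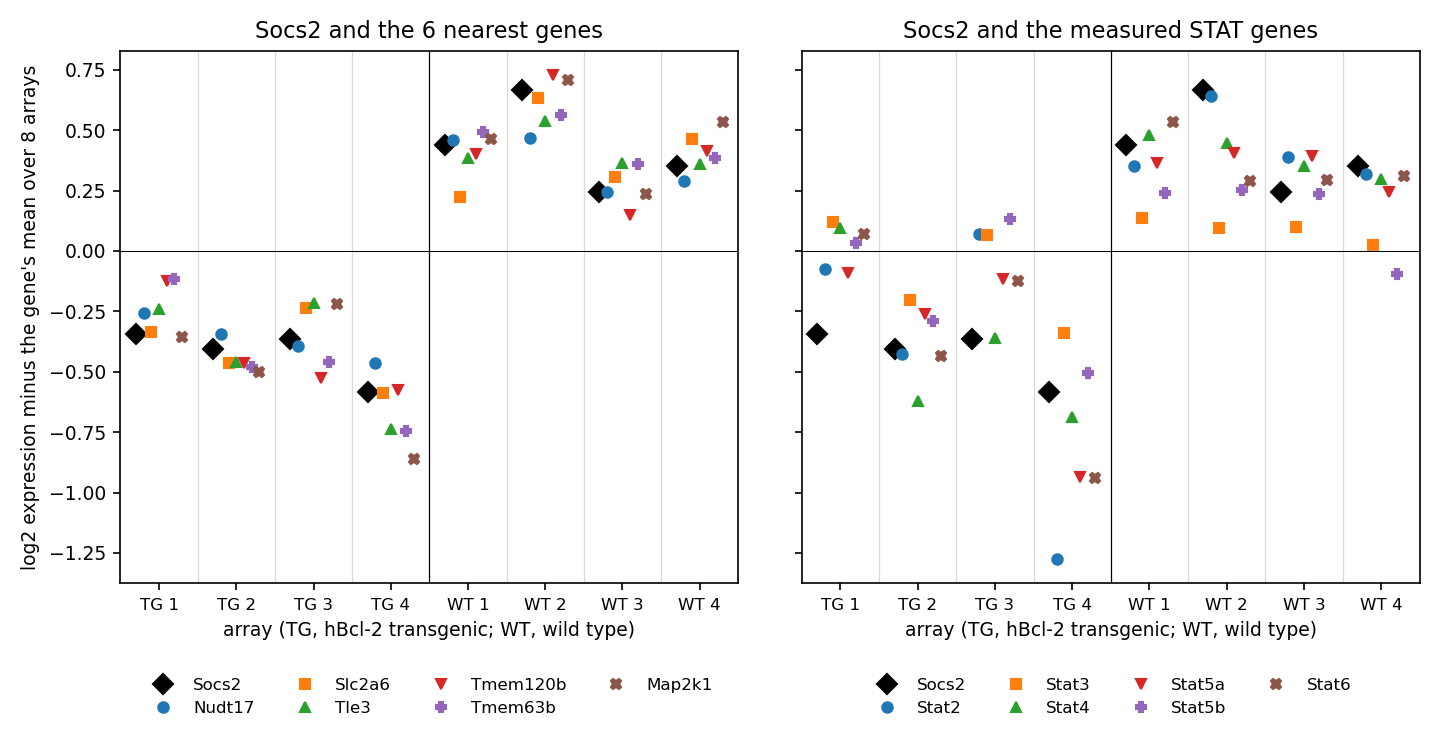
Log2 expression minus each gene's mean over the 8 arrays (y axis) on the hBcl-2 transgenic arrays (TG, left) and wild-type arrays (WT, right) for Socs2 with its 6 nearest genes (left panel) and with the 6 measured STAT genes (right panel). Socs2 and its nearest genes lie below 0 on all transgenic arrays and above 0 on all wild-type arrays. The STAT genes are spread more widely among transgenic arrays, with their lowest values on transgenic replicate 4.

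All 3 JAK and all 6 STAT genes measured had log2 folds below 0 in transgenic arrays, and 1 of each kind passed. Of 3 measured JAK kinases, Tyk2, which serves interferon and IL-12 receptors, fell (log2 fold -0.71, SE 0.14; limma adjusted p = 0.038), while Jak1 (-0.17) and Jak2 (-0.24) did not pass. Of 6 measured STAT genes, Stat4, the factor of IL-12 signalling, fell (-0.79, SE 0.17; limma adjusted p = 0.0462) and 5 did not pass. The groups did not overlap for 4 of the 6, against 8.94% of all genes. The median log2 fold of the 6 was -0.71, against -0.0016 over all genes. Stat5a, a main activator of Socs2 and Cish, was at 7.83 ± 0.40 in transgenic and 8.53 ± 0.07 in wild-type arrays (SD, n = 4 each; limma adjusted p = 0.0869). For Stat5b the groups overlapped, with a log2 fold of -0.32 (SE 0.16; limma adjusted p = 0.44). Stat2, which carries type I interferon signals, was at 8.41, 8.06, 8.55 and 7.21 in transgenic replicates 1 to 4, against 8.80 to 9.12 in wild type (limma adjusted p = 0.141). Each of the 6 STAT genes was lowest on transgenic replicate 4. Without that array all 6 still had a log2 fold below 0, with a median of -0.51, and the median of the 3 JAK genes was -0.19, against -0.24 with it. In that fit 1 STAT gene passed as lower, and it was not Stat4. Both calls were thin: Tyk2 and Stat4 passed without transgenic replicate 1, and lost the call without any single one of the other 7 arrays (limma adjusted p up to 0.111 for Tyk2 and 0.133 for Stat4). In sorted pools, fewer cells of a kind and less RNA per cell cannot be told apart.

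Among cytokines and receptors that use JAK kinases, single genes changed in both directions. Of 31 measured ligands, 0 rose and 1 fell, Ebi3, a subunit shared by IL-27 and IL-35 (log2 fold -1.78, SE 0.25; limma adjusted p = 0.00967), which also passed in each of the 8 fits that left out an array. At an unadjusted p below 0.05 in limma, 0 ligands were higher and 5 lower, against 13.2% of all genes in either direction. Of the 31 ligands 22 had a mean log2 level below 6. Among the 5 were Il2 (mean 4.27) and Il22 (mean 2.86), each highest on wild-type replicate 4. Of 33 measured receptor genes 2 rose and 0 fell: Il6ra, the IL-6 receptor chain (log2 fold 1.21, SE 0.20; limma adjusted p = 0.0181), and Csf2rb2, a beta chain of the IL-3 receptor (0.77, SE 0.16; limma adjusted p = 0.0466). At an unadjusted p below 0.05, 3 receptors were higher and 2 lower, against the same 13.2% of all genes. Il6ra lost the call without wild-type replicate 1 or 2 (limma adjusted p up to 0.0612), and Csf2rb2 passed without transgenic replicate 4 and lost the call without any single one of the other 7 arrays (up to 0.121).

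Kinases and adaptors that SOCS proteins are known to bind included 2 genes that rose of 14 measured, Kit and Csf1r, and 0 that fell. Kit, the receptor for stem cell factor and a binding partner of SOCS6, was at 9.63 ± 0.22 in transgenic and 8.70 ± 0.09 in wild-type arrays (SD, n = 4 each; log2 fold 0.92, SE 0.13; limma adjusted p = 0.01), and it passed in each fit that left out an array. Csf1r, which encodes the CSF-1 receptor of macrophages, was at 7.41 ± 0.27 in transgenic and 6.25 ± 0.35 in wild-type arrays (SD, n = 4 each; log2 fold 1.16; limma adjusted p = 0.0183). It lost the call without wild-type replicate 1, 2 or 3 (limma adjusted p up to 0.0668). At an unadjusted p below 0.05 in limma, 3 of the 14 were higher and 4 lower, against 13.2% of all genes in either direction. The median log2 fold of the 14 was -0.02.

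The ligase that SOCS boxes recruit and the other inhibitors of JAK and STAT signalling were mostly not called. Of 6 measured ligase partners, Rnf7, the RING subunit paired with cullin 5, rose (8.29 ± 0.30 in transgenic and 7.38 ± 0.29 in wild-type arrays, SD, n = 4 each; log2 fold 0.91; limma adjusted p = 0.0387), and Elob, Eloc, Cul5, Cul2 and Arih2 lay between -0.24 and 0.22. Rnf7 passed without transgenic replicate 1 and lost the call without any single one of the other 7 arrays (limma adjusted p up to 0.118). Of 24 measured genes of other SOCS box proteins 0 passed in limma. At an unadjusted p below 0.05, 4 were lower and 0 higher, against 13.2% of all genes in either direction. Of 13 other inhibitors, Ptpn6, which encodes the phosphatase SHP-1, fell (log2 fold -0.55, SE 0.12; limma adjusted p = 0.048), but it passed in none of the 8 fits that left out an array (limma adjusted p between 0.0608 and 0.126). At an unadjusted p below 0.05 in limma, 3 of the 13 were lower and 0 higher, against the same 13.2% of all genes.

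**Figure D4:**
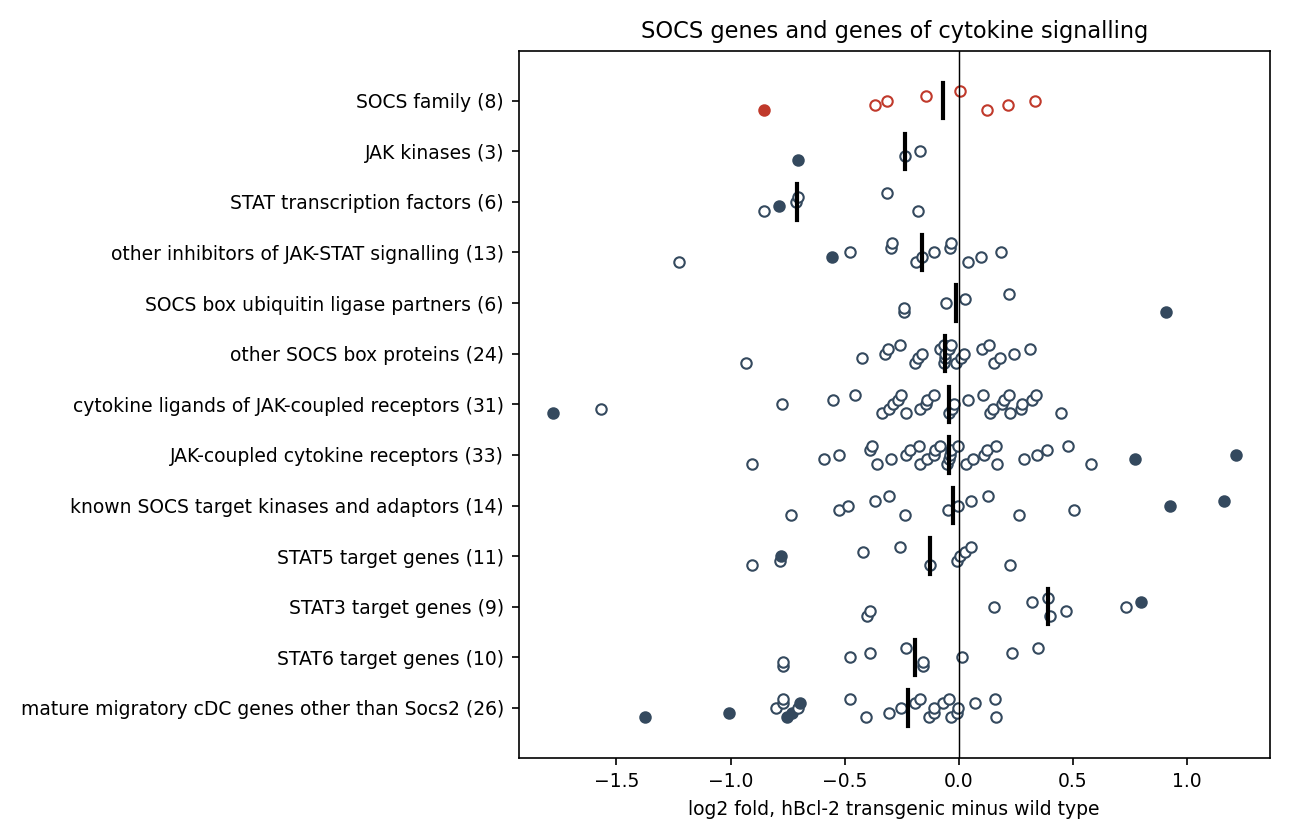
Log2 fold, hBcl-2 transgenic minus wild type (x axis), of the 8 SOCS genes (red, top row) and of the measured genes of each cytokine signalling list (blue, number measured in brackets). Filled points passed limma's test over all genes, and black bars are medians. The SOCS genes lie on both sides of 0 with 1 filled point, Socs2, and all 6 STAT genes lie below 0.

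Downstream of the STAT proteins, single target genes changed. Of 9 measured STAT3 targets, Nfil3, a transcription factor gene, rose (log2 fold 0.80, SE 0.13; limma adjusted p = 0.0203), 0 fell, and the median was 0.39. Nfil3 lost the call without transgenic replicate 2 or wild-type replicate 2, 3 or 4 (limma adjusted p up to 0.0676). At an unadjusted p below 0.05 in limma, 2 of the 9 were higher and 1 lower, against 13.2% of all genes in either direction.

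Of 11 measured STAT5 targets other than Socs2 and Cish, Bcl2l1, the gene of the anti-apoptotic protein BCL-XL, fell (6.71 ± 0.20 in transgenic and 7.49 ± 0.12 in wild-type arrays, SD, n = 4 each; limma adjusted p = 0.0181) and 0 rose, with a median of -0.12. Bcl2l1 lost the call without wild-type replicate 2, 3 or 4 (limma adjusted p up to 0.0639). At an unadjusted p below 0.05 in limma, 3 of the 11 STAT5 targets were lower and 0 higher, against 13.2% of all genes in either direction. Of 10 measured STAT6 targets 0 passed in limma. At an unadjusted p below 0.05, 3 were lower and 0 higher, against 13.2% of all genes in either direction. The STAT3 and STAT6 lists share Il4ra, and the lists were written with earlier results of these arrays known.

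Socs2 also belongs to the genes that cDC express as they mature and migrate. Of 26 other measured genes of that kind, 5 fell, Cd40, Tnfrsf4, Cd274, Nudt17 and Fscn1, and 0 rose. The 21 that did not pass included Ccr7 (log2 fold 0.07), Cd83 (-0.04), Cd86 (-0.11) and Ccl5 (0.16), the gene with the highest statistic. Also among the 21 were Cd200 (-0.80), Pdcd1lg2 (-0.77), Ccl22 (-0.77) and Eno2 (-0.70), each with an unadjusted p below 0.05 in limma. At that unadjusted threshold 11 of the 26 were lower and 0 higher, against 13.2% of all genes in either direction. Of the 26 log2 folds 23 were below 0. The median of the 26 was -0.22, and -0.15 without transgenic replicate 4. Nudt17, the gene nearest to Socs2 in pattern, ran from 10.93 to 11.13 over transgenic arrays, against 11.64 to 11.86 over wild-type arrays (log2 fold -0.73, SE 0.11; limma adjusted p = 0.0117). Cd274, which encodes PD-L1, had a log2 fold of -0.75 (SE 0.12; limma adjusted p = 0.0152), and leaving out wild-type replicate 2 or 3 ended its call (limma adjusted p up to 0.0582). Fscn1 lost the call without transgenic replicate 2 or any single wild-type array (limma adjusted p up to 0.078).

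Markers of other cells were measured beside these results, as SOCS genes are expressed in many leukocytes. Single markers rose in transgenic arrays: Klrd1 of 6 NK cell markers, Adgre1 of 10 macrophage and monocyte markers, Cd4 of 6 T cell markers and Bst2 of 7 plasmacytoid dendritic cell markers, and 0 of 4 B cell and 0 of 4 neutrophil markers passed in limma, with 0 of both at an unadjusted p below 0.05. At that unadjusted threshold 4 of the 10 macrophage and monocyte markers were higher and 0 lower (Adgre1, Cd14, Cd68 and Ly6c2), and for the NK, plasmacytoid and T cell lists 1 was higher, with 0, 0 and 1 lower. Over all genes 13.2% passed that threshold, in either direction. Klrd1, Adgre1 and Cd4 passed in each of the 8 fits that left out an array, and Bst2 lost the call in 5 of them (without transgenic replicate 2 or 3 or wild-type replicate 1, 2 or 3; limma adjusted p up to 0.0719). The mean log2 level of the macrophage and monocyte list ran from 6.59 to 7.42 over transgenic and from 6.35 to 6.64 over wild-type arrays. For T cells it ran from 5.31 to 5.37 over transgenic and from 5.14 to 5.54 over wild-type arrays. For NK cells it ran from 6.41 to 8.11 over transgenic and from 5.84 to 7.43 over wild-type arrays, and for B cells from 5.78 to 6.52 over transgenic and from 5.81 to 6.34 over wild-type arrays. Of 6 measured markers of cDC1, another kind of cDC, 0 passed in limma. At the unadjusted threshold 1 was lower, Irf8, and 0 higher. Their mean log2 level ran from 6.8 to 8.2 over transgenic and from 7.3 to 7.8 over wild-type arrays. Of 4 stromal and endothelial markers 0 passed, with 1 lower and 0 higher at that threshold. The NK, macrophage, plasmacytoid, cDC1 and stromal lists were highest on transgenic replicate 2. On that array Socs2 (9.68) lay between the other transgenic arrays. Socs1 (8.45), Socs3 (7.48) and Cish (6.42) were each at the highest value of their transgenic group there, and Socs4, Socs5, Socs6 and Socs7 were not. The part of these cells in the values of the SOCS genes was not tested.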

How the data were processed

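The deposited values are log2 expression per probe set. The submitters' processing notes name RMA and Partek, without versions, and the labels' protocols state amplification of 2.5 ng of RNA. RMA aligns the distributions of the arrays, so these values cannot show a change that all genes share. Further steps, filters and the genome build: not given in the sources used here.

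Of 34390 probe sets, 23521 name 1 gene, 1814 several and 9055 none. The brightest probe set of each gene was kept, which left 22180 genes, all tested, with no filter on signal. The arrays were compared with limma 3.58.1 (lmFit, eBayes) under R 4.3.3, transgenic minus wild type, with Benjamini-Hochberg adjustment over all genes, a threshold of 0.05 and two-sided tests. "Rose" and "fell" mean past that threshold. The number of arrays, 4 a group, limits precision.

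Named were all 8 members, the genes of each pathway list past the threshold (up to 6), the 6 genes nearest in pattern to the member that passed and to the most variable member, and leading markers. The rule also took the highest and lowest statistic of each pathway list, not all of which are given. Other genes, among them the STAT and JAK genes that did not pass, the ligase partners, and single markers that passed, were chosen with their values in view. The members and lists were chosen with earlier results of these data known. A list of the original design is not reported here. The procedure was tested on simulated data. Same-numbered arrays did not deviate together (correlations of -0.03 to 0.08), and the main fit did not pair them. These correlations cannot decide whether same-numbered pools were handled together. Alternatives were other variance moderation, filters on dim genes, normalization again, other use of probe sets, array weights (with statmod 1.5.0), a replicate block and leaving out each array. The figures used matplotlib 3.10.9 and Python 3.11.15.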

Additional observations from a re-analysis of the deposited data

Results flagged for a closer look

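In groups of 4, an array counts as standing apart when its gap to the nearest other array as a share of the group's range exceeds Dixon's 95% critical value, which chance gives about 1 time in 20. Of 54 groups tested 2 were of this kind, fewer than that share. The dimmer Socs3 probe set was at 6.37 on transgenic replicate 3, with the other 3 transgenic arrays at 6.70 to 6.76, and the brighter Socs3 set was also lowest there. Csf1r was at 6.76 on wild-type replicate 4, with the other 3 wild-type arrays at 6.04 to 6.13, and the transgenic arrays, from 7.10 to 7.64, all lay above it. The cause was not tested for either.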

How the results depend on the processing

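The count of 1 member past the threshold, Socs2, was the same under all alternatives except without variance moderation, where 0 of 8 passed in lmFit (limma; 2 had an unadjusted p below 0.05) and Socs2 was at -0.85 (adjusted p = 0.0691). On its dimmer probe set Socs2 was at -0.84 (limma adjusted p = 0.0647). Over the others its log2 fold ran from -0.91 to -0.76, with -0.76 after quantile normalization again, and with an array left out the count stayed at 1 and the fold ran from -0.91 to -0.77. With the replicate number as a block Socs2 was at -0.85 (limma adjusted p = 0.0404), and the number of all genes past the threshold was 187, against 374 without the block. Tyk2, Stat4, Ptpn6, Csf1r, Nfil3, Bcl2l1, Fscn1, Slc2a6, Tmem120b, Map2k1, Bst2 and Esam no longer passed with it. Same-numbered arrays correlated best with each other for 1 of the 4 numbers. Without variance moderation 35 genes passed, Nudt17 the only named one among them. Median centring ended the calls of Tyk2, Stat4, Ptpn6 and Csf2rb2, quantile normalization again those of Rnf7 and Ptpn6, and array weights that of Stat4. With an array left out 106 to 379 genes passed. Signs turned only for Cish, Socs5 and Socs6. With an array left out Cish ran from -0.411 to 0.277, with 0.277 without wild-type replicate 4, Socs5 from -0.0225 (also without wild-type replicate 4) to 0.310, and Socs6 from -0.0497 to 0.0811, below 0 without transgenic replicates 3 or 4 or wild-type replicates 2 or 3. Socs6 was also at -0.0461 with array weights and -0.0083 after quantile normalization again. None of these passed, and the cause was not tested. No measure of background was used here, so what low signal limits was not tested.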
